A study of Mus musculus with 26 samples.

Results

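The insulin receptor (IR) is a transmembrane tyrosine kinase of the cell surface. Its extracellular alpha subunits bind insulin, and its beta subunits cross the membrane and carry, in order, a juxtamembrane stretch, the kinase domain, and the C-terminal tail. Insulin binding turns on the kinase, which phosphorylates docking proteins such as IRS1 and Shc and feeds the PI3K-Akt and Ras-MAPK routes. The comparison described here is between cells that carried the whole receptor and cells whose receptor, called juxtamembrane-only (JMO), kept the extracellular and membrane-spanning parts and, inside the cell, little more than the juxtamembrane stretch. It was made without insulin, so it describes how transcript levels differed between the cells with either receptor when no ligand had been added.

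All cells came from brown preadipocytes of newborn mice with floxed *Insr* and *Igf1r* alleles, immortalized with SV40 large T antigen. Cre recombinase was used to inactivate both genes, which gave the receptor-null line, named DKO. DKO cells were then stably transduced, from a retroviral vector with hygromycin selection, with human IR of the B isoform (IR cells), the JMO receptor (JMO cells), a kinase-dead receptor (KD), or a receptor without its C-terminal tail (CT). The receptors carried a FLAG tag, and DKO cells received the empty vector. Before lysis, every dish was kept without serum for 6 h, and the insulin groups then received 100 nM insulin for 15 min. The series holds RNA sequencing of 26 libraries in 9 groups. The comparison used 6 of them, 3 of JMO and 3 of IR cells without insulin, chosen by their labels. The 3 JMO and 3 IR libraries with insulin came from other dishes and served as a second set. Every receptor was studied in 1 line, and nothing in the labels gives separately made lines, so each p-value measures the spread between dishes, and a receptor cannot be told apart from the line that carries it.

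Of 52962 genes in the count table, 15402 passed the filter on low counts, which asks for more than 0.5 CPM (counts scaled to the size of the library) in 4 or more of the 26 libraries, and were tested. The 6 libraries held 19084248 to 24439952 counts, and 3.09% to 3.72% of the counts lay on mitochondrial genes. The biological coefficient of variation between dishes of a group was 4.44%. On the principal components of the JMO and IR libraries with and without insulin, the first component held 45.5% of the variance and placed JMO libraries at 27.4 to 30.3 and IR libraries at -30.0 to -27.2. Along the second component, with 8.69%, the third IR library without insulin lay at 1.57, against 21.0 and 23.5 for the other two, and it is named below wherever a result turns on it.

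*Insr* (ENSMUSG00000005534, chr8:3122061-3279617 on GRCm38, minus strand) was at 65.9, 67.8, and 69.3 CPM in the IR libraries and 74.2, 68.9, and 69.8 CPM in the JMO libraries. The groups overlapped, and the difference was within the spread (log2 0.071, SE 0.046, adjusted p = 0.229). DKO cells had 23.8 ± 1.32 CPM (SD, n = 3). These counts were assigned to mouse transcripts while the introduced receptors are human, so the share of the introduced transcript in them is not known, and they say nothing of receptor protein. The counts of *Igf1r*, the gene of the related IGF1 receptor, come from a gene that was inactivated in all these lines and do not show a working receptor. They were 35.7, 35.3, and 34.4 CPM in IR and 30.7, 29.7, and 29.8 CPM in JMO cells, without overlap (log2 -0.22, SE 0.052, adjusted p = 0.000715), and DKO cells had 27.1 ± 2.06 CPM (SD, n = 3).

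The markers of the labelled cell type were checked as well. Of 10 preadipocyte and mesenchymal markers, 8 passed the filter on low counts. Their summed level was 7620 to 8534 CPM in IR and 4560 to 4598 CPM in JMO libraries, a sum made mostly of *Col1a1*. Of the 8, 4 were called lower and 1 higher, and with no minimum fold 5 were lower and 3 higher. The genes of mature brown adipocytes *Ucp1*, *Adipoq*, and *Dio2* were at 0 counts in all 6 libraries. Of 8 brown adipocyte markers 2 were tested, at a sum of 12.7 to 13.8 CPM in IR and 12.5 to 15.7 CPM in JMO libraries. Among markers of other cells, 4 of 8 macrophage genes were tested and none was called. Their summed level was 18.6 to 19.2 CPM in IR and 25.4 to 26.9 CPM in JMO libraries. With no minimum fold 3 were higher and none lower, and the median log2 difference was 0.54. *Adgre1*, the gene of the F4/80 antigen, was at 0. *Cldn5* of endothelium, *Sox10* and *Elavl4* of Schwann cells and neurons, *Myod1* and *Myf5* of muscle, and *Acan* of cartilage were also at 0. Other members of these lists passed the filter. Of 6 tendon and cartilage markers 5 were tested, and 1 was called higher and 1 lower. Their sum was 35.1 to 38.2 CPM in IR and 44.4 to 47.0 CPM in JMO libraries. Of 6 Schwann and neural markers 3 were tested, of 8 skeletal muscle markers 2, and of 6 endothelial markers 1. None of these was called, and no list summed to over 11.4 CPM. Of 6 smooth muscle and pericyte markers 4 were tested, and their sum was 564 to 632 CPM in IR and 781 to 809 CPM in JMO libraries. One of them, *Tagln*, an actin-binding protein of contractile cells, was called higher in JMO cells, from 89.3, 75.9, and 65.8 CPM in IR to 143, 151, and 142 CPM in JMO libraries (log2 0.91). The 4 did not differ in one direction. With no minimum fold 2 were higher and 2 lower, and their median log2 difference was -0.0022. The part of these markers in the results below was not tested.

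A gene was called when edgeR's glmTreat found its difference beyond 1.5-fold with a p, adjusted after Benjamini and Hochberg over all tested genes, below 0.05. By this rule 707 genes, 4.59% of those tested, differed between JMO and IR cells. Of these, 408 (2.65%) were higher and 299 (1.94%) were lower in JMO cells, with median log2 differences of 1.43 and -1.24, while the median over all tested genes was 0.0033. Differences of at least 4-fold were seen in 150 called genes, 95 of them higher and 55 lower. With no minimum fold, 3183 genes (20.7%) were higher and 3352 (21.8%) lower, so many small differences lay beneath those that were called. These shares of all tested genes are the background for the counts of every list below. The 3 JMO libraries lay entirely above or below the 3 IR libraries in 706 of the 707 genes. The exception was *Spata5l1*, a gene named after its values were seen, with 0 counts in the IR and 18 in the JMO libraries. Because the calls were made from these same 6 libraries, the separation in the 706 largely follows from the rule and adds no support. The same holds for every called gene below whose groups are said not to overlap. The leading genes were also chosen to have no overlap. Protein-coding genes made up 655 of the calls, and 6 called rows shared all their counts with another row of the table and so cannot be assigned to 1 gene.

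**Figure D1:**
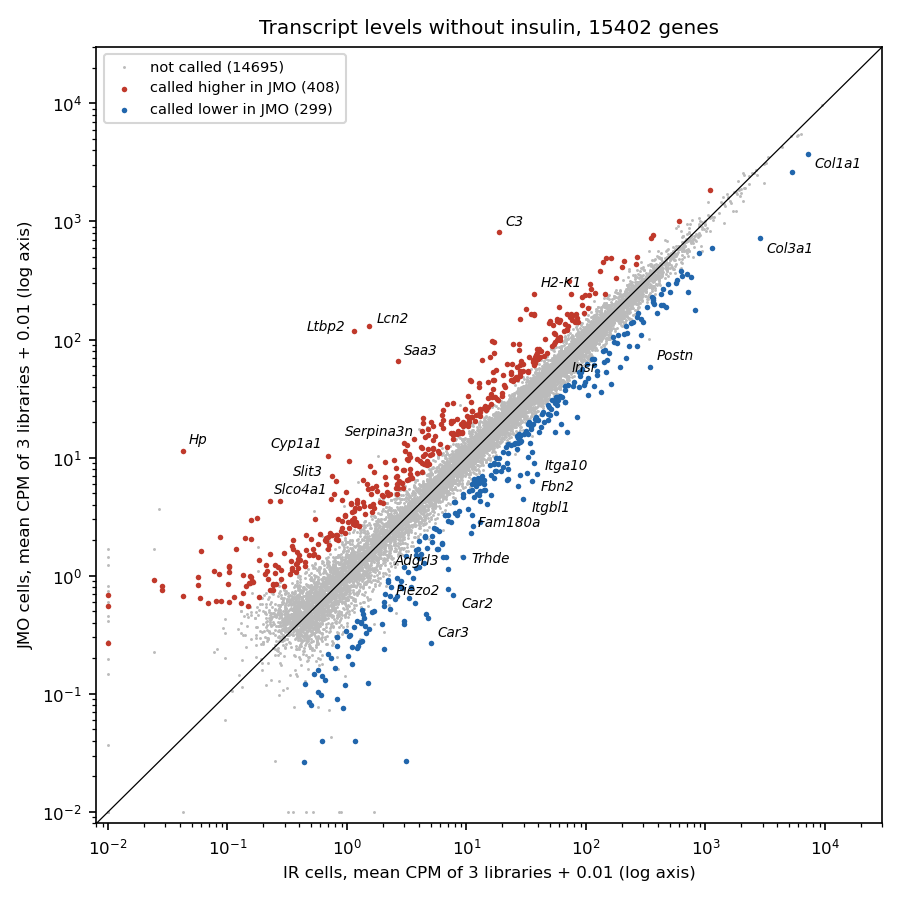
Mean CPM of each of 15402 tested genes in IR cells (x axis) and JMO cells (y axis) without insulin, 3 libraries each, on log axes with 0.01 added; the line marks equal levels, red and blue points are the 408 genes called higher and 299 called lower in JMO cells, and the leading genes with *Col1a1*, *Col3a1*, and *Insr* are named. *Lcn2*, *Ltbp2*, and *C3* stand far above the line, *Car3* and *Piezo2* far below it, and *Insr* on it.

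The proteins of the acute-phase response and of complement are made in quantity by liver and, under inflammatory signals, by fibroblasts and fat cells. They made up 5 of the 10 called genes with the largest positive difference among those of at least 5 CPM in the higher group. Before their values, the stretches upstream of some of these genes are shown, because the same short motif occurs in many of them. C/EBP factors, which drive acute-phase and adipocyte genes, bind a palindrome searched here on both strands with the letters TTGCNNAA, where N is any base. In RefSeq promoter windows (GRCm38.p6, 250 bases before to 50 after a start), these letters occurred in 10.8% of all 32851 windows and in 12 of 19 windows (63.2%) of the complement and acute-phase genes tested, against 16.3% of the windows of all genes called higher and 11.8% of those called lower. The 250 bases before the start of 3 leading genes follow, 5′ to 3′ on the strand of the gene, with the match in capitals. They lie at chr2:32387740-32387989 (*Lcn2*, minus strand), chr17:57228137-57228386 (*C3*, minus strand), and chr7:46715677-46715926 (*Saa3*, minus strand).
Lcn2: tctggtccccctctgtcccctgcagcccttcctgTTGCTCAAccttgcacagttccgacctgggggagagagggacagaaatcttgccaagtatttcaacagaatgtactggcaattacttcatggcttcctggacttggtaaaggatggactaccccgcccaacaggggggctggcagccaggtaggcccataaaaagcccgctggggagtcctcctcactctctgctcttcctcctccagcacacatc
C3: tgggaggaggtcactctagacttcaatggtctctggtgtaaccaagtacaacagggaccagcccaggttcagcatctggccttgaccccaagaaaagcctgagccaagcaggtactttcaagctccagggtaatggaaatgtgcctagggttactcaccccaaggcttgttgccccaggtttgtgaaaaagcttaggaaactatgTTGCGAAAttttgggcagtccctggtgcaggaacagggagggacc
Saa3: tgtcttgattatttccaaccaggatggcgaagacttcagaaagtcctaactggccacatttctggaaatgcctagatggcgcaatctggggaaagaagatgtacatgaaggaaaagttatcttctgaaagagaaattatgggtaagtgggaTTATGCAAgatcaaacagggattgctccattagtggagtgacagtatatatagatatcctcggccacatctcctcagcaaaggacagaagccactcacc
The match began 216 bases before the start in *Lcn2*, 45 bases before it in *C3*, and 99 bases before it in *Saa3*. These are matches of letters and not sites shown to be bound.

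Of 38 listed complement and acute-phase genes, 23 were expressed enough to be tested, 17 were called higher in JMO cells, and none was called lower. The median log2 difference of the 23 genes was 1.66, against 0.0033 over all genes. *Lcn2* encodes lipocalin 2, which binds bacterial siderophores and so withholds iron. Its level was 1.84, 1.47, and 1.24 CPM in the IR libraries and 131, 128, and 135 CPM in the JMO libraries, so that every JMO library exceeded every IR library many times over (log2 6.42, SE 0.077, adjusted p = 4.31e-36 from edgeR's quasi-likelihood fit without a minimum fold, adjusted over all tested genes as for every single gene below). *Hp*, the gene of haptoglobin, which captures free hemoglobin, had 1, 1, and 0 counts in the IR libraries and 276, 226, and 236 counts in the JMO libraries. That is a ratio of 356, with an exact 95% counting interval of 98.1 to 2940 that covers counting error only. RNA of a whole dish cannot tell more expressing cells from more RNA per cell, here or in any result below.

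Complement component *C3*, on which all routes of complement activation converge, was at 16.7, 17.8, and 21.7 CPM in IR and 779, 783, and 875 CPM in JMO libraries (log2 5.44, SE 0.13, adjusted p = 1.26e-16). *Saa3*, an inducible serum amyloid A, was at 2.39, 2.39, and 3.21 CPM in IR and 62.6, 62.3, and 71.96 CPM in JMO libraries (log2 4.62). *Serpina3n*, an inhibitor of serine proteases, was at 0.683, 1.25, and 1.19 CPM in IR and 9.55, 8.83, and 9.96 CPM in JMO libraries (log2 3.21). None of these groups overlapped. The complement genes called with *C3* belonged to the classical route (*C1ra*, *C1s1*, *C4b*) and to the alternative route (*Cfb*). *C4b* was nearly silent in IR cells, at 0.213, 0.109, and 0.198 CPM, and reached 1.30, 1.17, and 1.59 CPM in JMO cells (log2 2.89), and *Cfb* was at 1.11, 1.36, and 0.939 CPM and 3.25, 2.30, and 3.07 CPM (log2 1.35). Among the other called members were *Orm1*, *Orm2*, *Ptx3*, *Steap4*, *Cp*, *Serpina3g*, and *Serpina3f*. Serpina3 and Orm genes are close copies of each other, so their counts may be shared among them.

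Interferon-stimulated genes encode antiviral effectors that are switched on by interferon or by sensors of foreign nucleic acid. Of 61 effectors tested, 21 were called higher in JMO cells and none lower, and the median log2 difference was 0.64. With no minimum fold, 52 were higher and 3 lower. *Oas2*, which makes the oligoadenylate messenger that turns on RNase L, was at 36.6, 37.7, and 34.9 CPM in IR and 162, 141, and 193 CPM in JMO libraries, without overlap (log2 2.18, SE 0.21, adjusted p = 6.9e-08). *Zbp1*, a sensor of Z-form nucleic acid, was at 4.44, 4.67, and 3.75 CPM in IR and 19.9, 17.9, and 20.8 CPM in JMO libraries (log2 2.19). *Rsad2*, the gene of viperin, was at 5.21, 5.76, and 4.64 CPM in IR and 20.6, 16.8, and 17.7 CPM in JMO libraries (log2 1.83). In all 3 genes the JMO libraries lay above the IR libraries. The largest difference of the list was in *Slfn2*, a Schlafen gene, at 0.256, 0, and 0.247 CPM in IR and 2.72, 3.27, and 3.22 CPM in JMO libraries (log2 4.07).

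The ubiquitin-like modifier *Isg15* was already present in IR cells, at 62.00, 57.2, and 44.1 CPM, and was at 111, 109, and 123 CPM in JMO cells. The groups did not overlap, and the third IR library was the lowest (log2 1.06, SE 0.16, adjusted p = 2.84e-05). The other called effectors were *Oas1a*, *Oas1g*, *Oas3*, *Oasl1*, *Oasl2*, *Ifi44*, *Ifi27l2a*, *Ifitm3*, *Rtp4*, *Trim30a*, *Sp100*, *Ifi204*, *Ifi205*, *Gbp3*, *Phf11d*, and *Slfn8*. Several well-known members were higher by less than the rule requires. *Ifit1*, which binds viral RNA that lacks the host's cap methylation, was at 335, 359, and 308 CPM in IR and 584, 529, and 568 CPM in JMO libraries (log2 0.75, adjusted p = 0.00127). *Mx1*, a dynamin-like antiviral GTPase, was at 9.27, 9.34, and 7.86 CPM and 14.8, 14.4, and 14.4 CPM (log2 0.72, adjusted p = 0.000189). Both passed the test with no minimum fold and neither was called.

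The receptors, sensors, and transcription factors upstream of these effectors had fewer calls. Of 37 tested, 3 were called higher (8.11%, against 2.65% of all tested genes), and the median was 0.27. *Irf7*, the amplifying factor of the type I response and itself induced by interferon, was at 64.7, 59.6, and 55.5 CPM in IR and 137, 131, and 151 CPM in JMO libraries (log2 1.22). *Dhx58*, the gene of the RNA sensor LGP2, was at 24.8, 22.9, and 22.7 CPM and 52.8, 46.6, and 58.4 CPM (log2 1.16). Neither pair of groups overlapped. The third called gene was *Nfkbiz*, a nuclear partner of NF-κB, at 40.7, 37.9, and 34.5 CPM in IR and 67.5, 68.3, and 66.2 CPM in JMO libraries (log2 0.84). *Ifih1*, the gene of the sensor MDA5, differed by log2 0.51, which passed with no minimum fold and was not called.

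Class I major histocompatibility molecules present peptides from inside the cell to CD8 T cells, and interferon raises them. Of 25 genes of this pathway, all tested, 11 were called higher and none lower, and the median log2 difference was 0.62. Heavy chain *H2-K1* was at 37.9, 39.3, and 33.9 CPM in IR and 243, 239, and 254 CPM in JMO libraries (log2 2.73, SE 0.059, adjusted p = 2.59e-23). Heavy chain *H2-D1* was at 159, 154, and 129 CPM and 491, 486, and 495 CPM (log2 1.74). The JMO libraries lay far above the IR libraries in both. *B2m*, the light chain shared by all class I molecules, was at 369, 358, and 331 CPM in IR and 722, 727, and 736 CPM in JMO libraries (log2 1.05, SE 0.044). *Tap1*, which pumps peptides into the endoplasmic reticulum, was at 38.9, 39.5, and 34.5 CPM and 66.8, 64.7, and 70.97 CPM (log2 0.84). The immunoproteasome subunit *Psmb8* was at 1.32, 1.63, and 0.642 CPM and 4.23, 3.98, and 4.16 CPM (log2 1.78), and its partner *Psmb9* and the transactivator *Nlrc5* were also called. The remaining calls, *H2-Q4*, *H2-Q6*, *H2-Q7*, and *H2-T22*, are closely related class Ib genes between which reads can be split. *H2-Q6*, for example, was at 0.427, 0.706, and 0.445 CPM in IR and 2.85, 2.86, and 3.27 CPM in JMO libraries.

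The interferon-stimulated response element was searched on both strands with the letters GAAANNGAAA. It was found in 3.44% of all promoter windows and 3.13% of the windows of tested genes. Windows of genes called higher in JMO cells held it in 10.1% of 375 cases, and windows of genes called lower in 3.42% of 263. Among the effectors it occurred in 32 of 57 windows (56.1%), in 12 of 20 windows of called and 20 of 37 windows of uncalled members. Of 22 windows of class I genes, 5 (22.7%) held it. The effector *Isg15* and the class I light chain *B2m* are shown as examples, again as the 250 bases before the start with the matches in capitals, at chr4:156200819-156201068 (minus strand) and chr2:122147437-122147686 (plus strand).
Isg15: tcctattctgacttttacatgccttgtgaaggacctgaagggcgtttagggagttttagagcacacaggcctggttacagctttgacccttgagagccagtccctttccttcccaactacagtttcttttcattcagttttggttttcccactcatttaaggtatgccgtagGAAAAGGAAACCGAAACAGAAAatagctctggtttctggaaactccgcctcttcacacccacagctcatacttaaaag
B2m: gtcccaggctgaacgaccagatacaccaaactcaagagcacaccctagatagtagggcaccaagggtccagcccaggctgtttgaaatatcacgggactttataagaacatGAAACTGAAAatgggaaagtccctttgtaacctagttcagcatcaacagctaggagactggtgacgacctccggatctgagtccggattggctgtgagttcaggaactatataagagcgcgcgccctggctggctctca
*Isg15* had 3 overlapping matches, which began 78, 72, and 66 bases before the start, and *B2m* had 1, which began 139 bases before it.

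Chemokines and cytokines carry inflammatory signals between cells. Of 32 tested genes, 8 were called higher and none lower, and the median log2 difference was 0.53. *Ccl2*, which attracts monocytes, was at 164, 161, and 163 CPM in IR and 490.0, 490.5, and 489.5 CPM in JMO libraries (log2 1.59, SE 0.075). *Cxcl5*, which attracts neutrophils, was at 29.2, 28.2, and 27.4 CPM and 146, 147, and 152 CPM (log2 2.39, SE 0.083). The 3 libraries of each group lay close together in both genes and far from those of the other group. *Il6*, a main inducer of acute-phase genes in liver, was low in both lines, at 0.299, 0.434, and 0.296 CPM in IR and 1.83, 1.94, and 2.28 CPM in JMO libraries (log2 2.55). *Ccl5*, *Ccl7*, *Cxcl1*, the IL-1 receptor antagonist *Il1rn*, and the IL-33 receptor *Il1rl1* completed the calls. *Cxcl12*, the stromal chemokine that binds CXCR4, was at 463, 470.1, and 452 CPM in IR and 708, 714, and 674 CPM in JMO libraries, *Cxcl10* differed by log2 0.68, and *Csf1*, the macrophage growth factor, by 0.42. All 3 were higher with no minimum fold and were not called.

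**Figure D2:**
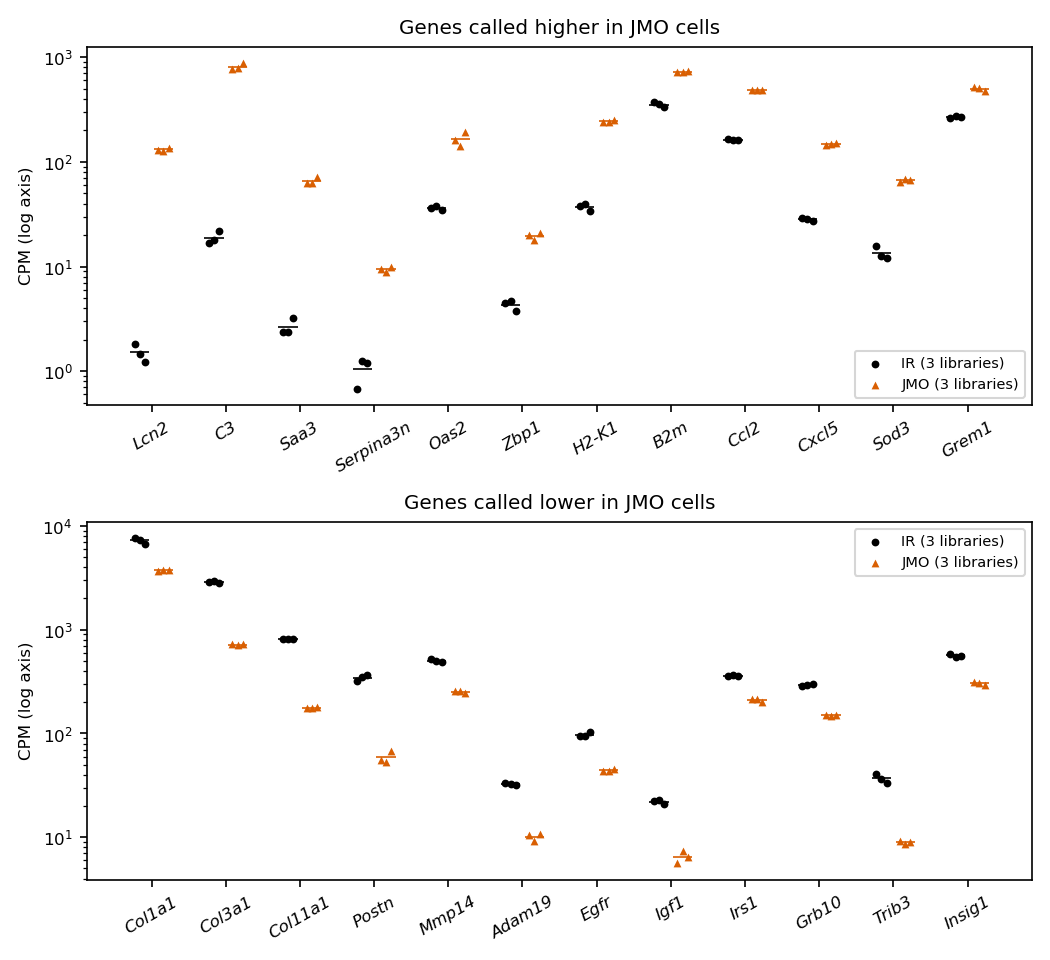
CPM of 24 called genes in each of the 3 IR (circles) and 3 JMO (triangles) libraries without insulin, on log axes; horizontal lines are group means. The top panel holds 12 genes higher and the bottom panel 12 genes lower in JMO cells, and in none of the 24 do the groups overlap.

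The extracellular matrix held the lists with the most calls on the lower side. Fibrillar collagens are the main protein product of mesenchymal cells and give tissue its tensile strength. Of 32 collagen chains tested, 7 were called lower and 1 higher in JMO cells, with a median log2 difference of -0.40. With no minimum fold 20 were lower and 5 higher. *Col1a1*, a chain of type I collagen, was at 7653, 7356, and 6746 CPM in IR and 3706, 3752, and 3748 CPM in JMO libraries (log2 -0.96, SE 0.040, adjusted p = 3.87e-17). Its partner *Col1a2* was at 5486, 5429, and 5119 CPM and 2567, 2594, and 2632 CPM (log2 -1.04). In both chains the 3 JMO libraries lay close together and far below the IR libraries. *Col3a1*, of type III collagen, was at 2889, 2951, and 2808 CPM in IR and 723, 705, and 731 CPM in JMO libraries (log2 -2.002, SE 0.037). *Col11a1*, of type XI collagen, which seeds fibrils, was at 819, 816, and 807 CPM and 175, 176, and 179 CPM (log2 -2.20, SE 0.035).

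Summed over the 32 chains, collagen transcripts were 22494 to 24109 CPM in IR and 13197 to 13276 CPM in JMO libraries. *Col5a1* (log2 -0.86), *Col6a2*, and *Col14a1* (log2 -2.14, at most 2.88 CPM) were the other chains called lower. *Col6a1*, of the beaded filaments around cells, was at 1448, 1453, and 1381 CPM in IR and 947, 951, and 998 CPM in JMO libraries (log2 -0.56), lower but not called. The decrease did not extend to every chain. *Col4a1* of basement membranes was at 137, 134, and 129 CPM in IR and 195, 186, and 185 CPM in JMO libraries (log2 0.50), higher but not called. *Col23a1*, a transmembrane collagen, was called higher, at 0.427, 0.815, and 1.09 CPM in IR and 4.43, 4.90, and 5.55 CPM in JMO libraries (log2 2.69).

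Enzymes that modify, fold, and crosslink collagen had few calls, and most small differences were decreases. Of 28 tested, 2 were called higher and 1 lower (10.7% in all, against 4.59% of all tested genes), with a median of -0.16. With no minimum fold 16 were lower and 5 higher, against 21.8% and 20.7% of all tested genes. The lysyl oxidase *Lox*, which crosslinks collagen, was at 5202, 5180.0, and 5157 CPM in IR and 5348, 5430.0, and 4968 CPM in JMO libraries, and the groups overlapped (log2 0.019, SE 0.033, adjusted p = 0.686). Its relative *Loxl2* was called lower, at 269, 276, and 261 CPM and 155, 159, and 152 CPM (log2 -0.79). *Pcolce2*, an enhancer of procollagen cleavage, was called higher, at 7.90, 6.84, and 6.03 CPM and 27.5, 29.5, and 27.7 CPM (log2 2.02), as was the propeptidase *Adamts14* (log2 0.82). Of these 2 only 1 was called when the third IR or the third JMO library was left out, or with DESeq2. The collagen chaperone *Serpinh1* differed by log2 -0.46, lysyl hydroxylase *Plod2* by -0.52, and prolyl hydroxylase *P4ha1* by -0.28, each lower with no minimum fold and not called. The propeptidase *Adamts2* did not pass (log2 -0.18, adjusted p = 0.0529). *Adamts2* passed with the replicate block, with only the libraries compared, with either other filter on low counts, and without the third IR library (adjusted p from 0.0189 to 0.0457), and missed the threshold with the other scaling, DESeq2, limma voom, and each other library left out (adjusted p from 0.0624 to 0.191).

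Matrix glycoproteins and proteoglycans differed in both directions. Of 56 tested, 16 were called lower and 7 higher (41.1% in all), and the median was -0.15. *Postn*, periostin, was at 322, 350.1, and 365 CPM in IR and 55.95, 52.8, and 68.04 CPM in JMO libraries (log2 -2.55, SE 0.14). The fibrillin *Fbn2*, a microfibril protein of the embryo and of growing tissue, was at 36.00, 35.1, and 35.9 CPM and 6.14, 6.22, and 6.64 CPM (log2 -2.49, SE 0.078). Its relative *Fbn1* went the other way by less than the rule requires, at 303, 307, and 307 CPM and 403, 391, and 374 CPM (log2 0.35). Small leucine-rich proteoglycans, which coat collagen fibrils, had calls in both directions, and *Fmod*, named again below, was called higher. Of those called lower, *Dcn*, decorin, was at 2.86, 4.18, and 4.10 CPM in IR and 0.488, 0.561, and 0.694 CPM in JMO libraries (log2 -2.67). *Lum*, lumican, was at 0.640, 1.09, and 0.741 CPM and 0.0407, 0, and 0.198 CPM. *Dcn* and *Lum* were low in both lines, and *Aspn* and *Ogn* were also called lower. The remaining lower calls were *Efemp1*, *Mfap2*, *Tgfbi*, *Spon2*, *Matn2*, *Matn3*, *Nid2*, *Abi3bp*, *Cilp2*, and *Smoc2*.

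On the higher side of the same list, *Ltbp2*, a fibrillin-like protein of microfibrils, was low in IR cells and high in JMO cells, at 1.15, 1.14, and 1.09 CPM in IR and 112, 114, and 129 CPM in JMO libraries (log2 6.70, SE 0.090, adjusted p = 6.37e-35). *Igfbp7*, a secreted protein that binds IGFs weakly, was at 79.1, 74.02, and 72.5 CPM in IR and 242, 247, and 238 CPM in JMO libraries (log2 1.68). *Tnc*, tenascin C, was at 28.9, 28.1, and 27.5 CPM and 53.1, 53.01, and 48.02 CPM (log2 0.87). In each of the 3 genes the JMO libraries were all the higher ones. *Spp1*, *Vcan*, *Fmod*, and *Agrn* were called higher as well. Fibronectin, *Fn1*, was at 6188, 6317, and 6391 CPM in IR and 5650.0, 5469, and 5423 CPM in JMO libraries, a small decrease (log2 -0.19, adjusted p = 5.01e-06).

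Proteases that cut the matrix showed 8 lower and 3 higher calls among 35 genes tested, with a median of -0.035. *Mmp14*, a membrane-bound metalloproteinase that cuts collagen and activates pro-MMP2, was at 518, 504, and 483 CPM in IR and 258, 256, and 245 CPM in JMO libraries (log2 -0.99, SE 0.042). Its substrate *Mmp2* was at 57.2, 56.1, and 53.5 CPM and 30.1, 27.2, and 29.3 CPM (log2 -0.94). Both were lower in every JMO library. The sheddase *Adam19* was at 33.5, 32.4, and 32.01 CPM in IR and 10.6, 9.13, and 10.7 CPM in JMO libraries (log2 -1.68), and *Adamts17* at 4.40, 4.34, and 5.04 CPM and 0.244, 0.714, and 0.446 CPM (log2 -3.32). *Mmp16*, *Adamts1*, *Adamts5*, and *Adamtsl2* completed the lower calls. *Adamts7*, which cuts the cartilage protein COMP, was called higher (log2 0.88), with *Mmp19* and *Mmp8*. *Mmp8*, the collagenase of neutrophils, had 1 count over the IR libraries and 52 over the JMO libraries, a ratio of 50.1 with an exact 95% counting interval of 8.61 to 2020. The inhibitor *Timp3* differed by log2 0.33, and *Mmp3* by 0.87, without being called.

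Integrins, which are receptors for matrix, and laminins had calls in both directions. Of 25 integrin and laminin genes tested, 4 were called lower and 1 higher, and the median was 0.090. With no minimum fold 9 were higher and 9 lower. *Itga10*, an alpha subunit of collagen-binding integrin, was at 40.01, 38.5, and 37.2 CPM in IR and 8.38, 6.84, and 6.59 CPM in JMO libraries (log2 -2.40, SE 0.091). *Itga8* (log2 -1.49), *Itga7*, and *Lama2* were also called lower. The shared beta subunit *Itgb1* was at 887, 879, and 889 CPM and 815, 813, and 746 CPM (log2 -0.16), lower and not called, and *Itga5*, of the fibronectin receptor, differed by log2 0.094. *Lama4*, the alpha chain of laminins of vessels and fat, was called higher, at 46.4, 47.2, and 47.2 CPM in IR and 76.8, 75.4, and 78.9 CPM in JMO libraries (log2 0.72). It was not called with DESeq2, nor when any of the 6 libraries but the second JMO library was left out.

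Genes of the insulin and IGF pathway itself had a median log2 difference of -0.0046 over 69 tested, with 7 called lower and 4 higher. Those called lower included a ligand, an adaptor, and a feedback inhibitor. *Igf1*, the growth factor, was at 22.1, 22.97, and 20.7 CPM in IR and 5.61, 7.30, and 6.49 CPM in JMO libraries (log2 -1.77, SE 0.094, adjusted p = 3.15e-17). *Irs1*, the docking protein that the active receptor phosphorylates, was at 359.6, 367, and 359.7 CPM and 214, 213, and 202 CPM (log2 -0.79, SE 0.037). *Grb10*, an adaptor that inhibits the receptor and is imprinted, was at 286, 291, and 297 CPM and 152, 147, and 149.6 CPM (log2 -0.96, SE 0.031). In all 3 every JMO library lay below every IR library. *Igfbp4*, which holds IGFs away from their receptor, was at 13.7, 13.9, and 11.2 CPM in IR and 2.20, 2.60, and 3.67 CPM in JMO libraries (log2 -2.21). *Trib3*, a pseudokinase that binds Akt and is induced by amino acid stress, was at 40.9, 36.7, and 33.5 CPM and 9.15, 8.62, and 9.02 CPM (log2 -2.05, SE 0.086). *Mme*, a membrane peptidase, and *Cav1*, the coat protein of caveolae, were the other 2 called lower.

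Second docking protein *Irs2* was at 50.04, 43.4, and 42.4 CPM in IR and 40.5, 42.3, and 39.2 CPM in JMO libraries (log2 -0.16, adjusted p = 0.0113). It was not called, and it lost the test with no minimum fold when the first IR or the third JMO library was left out or only the libraries compared were fitted (adjusted p = 0.247, 0.0621, and 0.0577). *Igf2*, a fetal growth factor and imprinted, was called higher at levels close to the limit of detection, 0.0854, 0.0543, and 0.296 CPM in IR and 1.18, 0.663, and 0.743 CPM in JMO libraries (log2 2.54, SE 0.56, adjusted p = 0.000392). The other 3 called higher were *Igfbp7*, described above, the adaptor *Shc2*, and the pseudokinase *Trib1*. DESeq2 called 2 of these 4. Among imprinted genes as a group, 3 of 22 tested were called lower and 2 higher, with a median of -0.19 and 14 lower against 2 higher with no minimum fold. *Mest* was at 3.42, 2.99, and 2.96 CPM in IR and 1.18, 1.53, and 1.69 CPM in JMO libraries (log2 -1.10), *Plagl1*, a zinc-finger factor, at 105, 101, and 103 CPM and 68.6, 67.8, and 69.5 CPM (log2 -0.59, not called), and *Peg10* was called lower. DESeq2 called 1 of the 3 lower genes. *Sfmbt2* was called higher (log2 1.28), but with DESeq2 neither *Sfmbt2* nor *Igf2* was called, and 1 or none was called without the first JMO library or any 1 of the IR libraries.

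Other receptor tyrosine kinases had 3 lower calls and 1 higher among 38 tested (10.5% in all), with a median of 0.069. *Egfr*, the EGF receptor, was at 95.5, 94.7, and 103 CPM in IR and 43.2, 43.8, and 45.1 CPM in JMO libraries (log2 -1.15, SE 0.040, adjusted p = 2.22e-22). *Mertk*, a receptor for the uptake of dying cells, was at 13.96, 13.03, and 15.2 CPM and 6.06, 5.25, and 6.64 CPM (log2 -1.23). The ephrin receptor *Epha3* was at 353, 359, and 365 CPM and 226, 229.5, and 227 CPM (log2 -0.66). None of the 3 overlapped. *Styk1*, a kinase without a large extracellular part, was called higher (log2 0.85), but not with DESeq2, while RLE scaling or a fit of only the libraries compared added a second call. The PDGF receptors, which mark preadipocytes, differed by log2 -0.33 (*Pdgfra*) and 0.067 (*Pdgfrb*), and *Fgfr1* by 0.25, none of them called. The collagen receptor *Ddr2* differed by log2 -0.31 and *Ephb3* by -0.21.

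Cholesterol synthesis is controlled by SREBP2, which enters the nucleus when membranes are short of sterol. Small differences ran through most of this pathway. Of 34 tested genes, 28 were lower and 5 higher with no minimum fold, against 21.8% and 20.7% of all genes, but 2 in each direction were called. The median log2 difference was -0.37, and the summed level was 8182 to 8357 CPM in IR and 5846 to 6400 CPM in JMO libraries. *Insig1*, the sterol-sensing retainer of SREBP and itself a target of it, was at 587, 544, and 563 CPM in IR and 312, 307, and 293 CPM in JMO libraries (log2 -0.90, SE 0.037). *Hmgcs1*, an early enzyme, was at 846, 871, and 911 CPM and 570.3, 565, and 501 CPM (log2 -0.68, SE 0.038). These were the 2 called lower, and without the second IR, the third IR, or the third JMO library, with RLE scaling, with DESeq2, or with only the libraries compared, 1 was called. *Sqle*, the squalene epoxidase, was at 374, 377, and 388 CPM in IR and 276, 267, and 247 CPM in JMO libraries (log2 -0.53), and the factor *Srebf2* differed by log2 -0.33, both without overlap and neither called.

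Both genes of the list that were called higher are given next. *Abca1*, which loads cholesterol onto lipoproteins, was at 0.299, 0.380, and 0.642 CPM in IR and 2.32, 1.79, and 2.48 CPM in JMO libraries (log2 2.32), and *Npc2*, which moves cholesterol out of lysosomes, at 270.2, 266, and 254 CPM and 445, 419.8, and 441 CPM (log2 0.73, SE 0.044). Neither pair of groups overlapped. Without the third IR library 1 was called. A core of the sterol response element, CACCCCAC, was searched on both strands and occurred in 2 of 32 windows of this list (6.25%), against 2.87% of all windows.

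Fatty acid and triglyceride synthesis had 14 lower and 3 higher genes with no minimum fold among 23 tested, and a median of -0.19. Over all tested genes 21.8% were lower and 20.7% higher. *Fasn*, fatty acid synthase, was at 938, 919, and 899 CPM in IR and 635, 636, and 592 CPM in JMO libraries (log2 -0.56). *Scd2*, a stearoyl-CoA desaturase, was at 3040.0, 3035, and 3154 CPM and 2157, 2182, and 1974 CPM (log2 -0.55). Neither pair overlapped and neither gene was called. *Scd1* differed by log2 -0.41, *Acaca* by -0.44, and *Acly* by -0.35, also without a call. *Dgat2*, which completes triglycerides, was the only gene of the list called, higher, at 4.31, 5.05, and 4.45 CPM in IR and 9.11, 8.37, and 9.12 CPM in JMO libraries (log2 0.95). DESeq2 did not call it. That 1 call is 4.35% of the list, close to the 4.59% of all tested genes.

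The factor p53, which answers DNA damage, is bound by the SV40 large T antigen that all these lines carry. Of 38 p53 targets tested, 7 were called higher and 1 lower, the median was 0.30, and 21 were higher and 6 lower with no minimum fold. *Pmaip1*, the gene of the pro-apoptotic protein Noxa, was at 1.62, 1.30, and 2.08 CPM in IR and 7.16, 7.55, and 7.78 CPM in JMO libraries (log2 2.16, SE 0.14). *Ccng1*, cyclin G1, was at 83.7, 84.4, and 88.7 CPM and 136, 146, and 143 CPM (log2 0.73, SE 0.040). *Zmat3* was at 36.4, 38.8, and 37.5 CPM and 62.2, 61.5, and 65.4 CPM (log2 0.75). The groups did not overlap in any of them. *Dcxr* (log2 1.24), *Aen*, *Fas*, and *Gtse1* were called higher as well, and the membrane protein *Perp* lower (log2 -1.37). DESeq2 called 3 of the 7 and not *Perp*, which was also not called without the first IR, the first JMO, or the third JMO library. *Cdkn1a*, the cell cycle inhibitor p21, was at 48.1, 47.7, and 46.3 CPM in IR and 69.9, 76.02, and 73.4 CPM in JMO libraries (log2 0.62), *Mdm2*, the ubiquitin ligase that degrades p53, at 84.5, 81.4, and 84.1 CPM and 125, 122, and 124 CPM (log2 0.57), and *Trp53inp1* differed by log2 0.63. These 3 were higher with no minimum fold and were not called.

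Of 62 genes of the cell cycle and of replication, 3 were called higher and none lower. That is 4.84%, close to the 4.59% of all tested genes. With no minimum fold 37 were higher and 11 lower, and the median was 0.15. *Ccnd1*, cyclin D1, was at 15.6, 17.1, and 15.5 CPM in IR and 35.8, 36.4, and 30.8 CPM in JMO libraries (log2 1.10, SE 0.16), and *Ccnd2* at 3.37, 3.15, and 3.61 CPM and 8.21, 6.22, and 7.29 CPM (log2 1.10). The third was their kinase partner *Cdk6*. *Ccne1* differed by log2 0.59, the mitotic cyclin *Ccnb1* by 0.29, and the proliferation marker *Mki67* by 0.19, all higher, while the replicative helicase subunit *Mcm2* (-0.17) and the locus of p16 and ARF, *Cdkn2a* (-0.33), were lower. None of these 5 was called.

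Immediate early genes answer growth factors within minutes. Of 34 tested, 5 were called higher in JMO cells without insulin (*Fosl1*, *Myc*, *Dusp5*, *Dusp6*, and *Ier3*), none was called lower, and the median was 0.33. *Fosl1*, a partner of Jun in AP-1, was at 4.14, 3.26, and 3.51 CPM in IR and 14.4, 16.2, and 12.8 CPM in JMO libraries (log2 1.98, SE 0.14). *Myc* was at 25.7, 23.2, and 22.1 CPM and 51.8, 51.9, and 49.2 CPM (log2 1.10, SE 0.093). Both were higher in every JMO library. *Fos*, by contrast, was at 4.996, 4.67, and 3.46 CPM in IR and 5.82, 4.75, and 5.05 CPM in JMO libraries and the groups overlapped (log2 0.25, adjusted p = 0.125), as they did for *Egr1*, *Ier2*, and *Dusp1*, with log2 differences of 0.0046, -0.0043, and 0.039. *Jun* differed by log2 0.47 without a call. Only 2 of the 5 calls were left with DESeq2, without the third IR library, or without the third JMO library, and 3 without the second IR library.

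**Figure D3:**
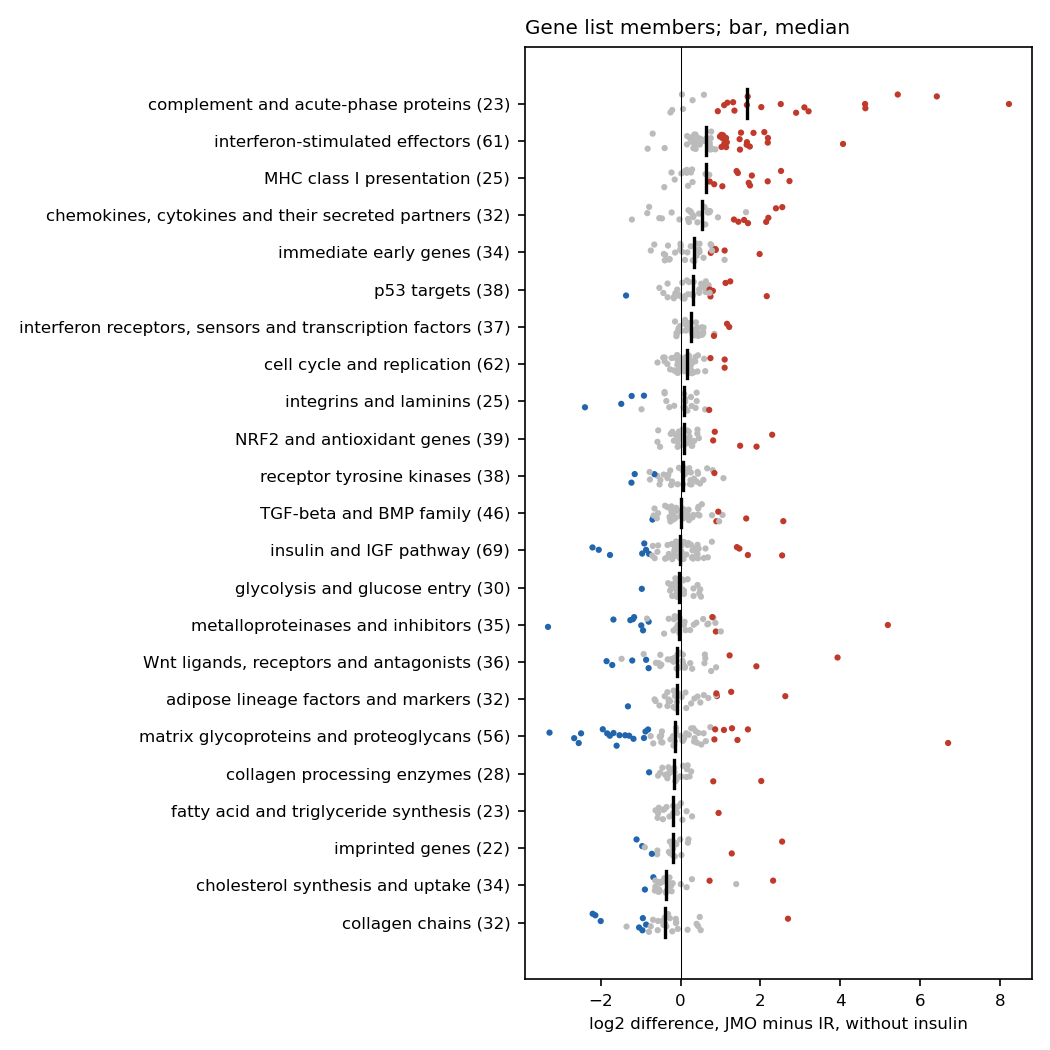
Log2 difference of JMO from IR cells without insulin (x axis) for every tested member of 23 gene lists, with the number tested in parentheses; red and blue points are genes called higher and lower, grey points are not called, and black bars are list medians. Complement and acute-phase proteins have the highest median, 1.66, and collagen chains the lowest, -0.40.

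Signals of development and fat lineage gave scattered calls. Of 32 adipose lineage genes tested, 4 were called higher (*Cebpd*, *Ly6a*, *Fabp4*, *Plin4*) and 1 lower (15.6% in all), and the median was -0.096. *Fabp4*, a fatty acid carrier of fat cells, was at 0.470, 0.978, and 0.741 CPM in IR and 4.76, 4.13, and 4.36 CPM in JMO libraries (log2 2.62). *Pparg*, the master factor of fat cells, was at 2.69, 2.66, and 2.92 CPM and 5.21, 3.93, and 4.16 CPM (log2 0.69, not called), and *Cebpa* overlapped between groups (log2 -0.14). Among surface markers of progenitors, *Cd34* was called lower, at 12.5, 12.2, and 12.2 CPM in IR and 4.68, 4.90, and 5.20 CPM in JMO libraries, and *Ly6a*, the gene of Sca-1, higher, at 3.76, 5.81, and 3.95 CPM and 11.3, 9.80, and 11.1 CPM.

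Of 36 genes of Wnt signaling, 5 were called lower and 3 higher (22.2% in all), and the median was -0.092. *Lgr5*, a receptor for R-spondins and a Wnt target, was at 16.9, 16.6, and 14.2 CPM in IR and 5.29, 4.54, and 4.66 CPM in JMO libraries (log2 -1.71), and the ligand *Wnt16* at 3.50, 2.50, and 2.57 CPM and 0.894, 0.663, and 0.793 CPM (log2 -1.86). The receptors *Fzd1* and *Fzd2* and the R-spondin *Rspo2* were also called lower. *Ccn5*, a Wnt-induced secreted protein, was called higher, at 27.4, 24.3, and 21.5 CPM in IR and 89.01, 93.6, and 91.6 CPM in JMO libraries (log2 1.90, SE 0.055), as were the antagonists *Sfrp1*, at 0.128, 0.163, and 0.0988 CPM and 1.99, 2.50, and 1.69 CPM (log2 3.93), and *Notum*. *Axin2*, a feedback target, differed by log2 -0.93, the antagonist *Sfrp2* by -0.62, and *Dkk2* by -1.48 at under 1 CPM, none of them called. *Wnt5a* overlapped between the groups (log2 0.044).

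In the TGF-beta and BMP family, 4 of 46 tested genes were called higher and 2 lower, and the median was 0.020. The BMP antagonist *Grem1* was at 261, 274, and 268 CPM in IR and 517, 504, and 471 CPM in JMO libraries (log2 0.90, SE 0.037, adjusted p = 1.78e-20). The activin subunit *Inhbb* was at 19.1, 18.4, and 15.5 CPM and 58.2, 60.6, and 46.9 CPM (log2 1.64). Both were higher in every JMO library. The receptor *Tgfbr2*, at 171, 174, and 163 CPM in IR and 105, 106, and 106 CPM in JMO libraries (log2 -0.68), and the other activin subunit, *Inhba* (log2 -0.71), were called lower. Neither was called with DESeq2, with only the libraries compared, or without the second IR library, and 1 was called without the first IR, the first JMO, or the third JMO library. The ligands *Tgfb1*, *Tgfb2*, *Tgfb3*, and *Bmp4* had log2 differences of -0.18, -0.65, -0.28, and -0.18 and were not called.

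Among 39 genes of NRF2 and antioxidant defense, 5 were called higher and none lower, with a median of 0.074. *Sod3*, the extracellular superoxide dismutase, was at 15.7, 12.7, and 11.96 CPM in IR and 64.1, 68.1, and 67.4 CPM in JMO libraries (log2 2.29, SE 0.066, adjusted p = 5.26e-25). The membrane glutathione transferase *Mgst1* was at 3.37, 3.15, and 2.57 CPM and 11.7, 11.9, and 10.5 CPM (log2 1.90). *Sod2*, *Gclc*, and *Gsta3* were called too. The classical NRF2 targets *Nqo1*, *Hmox1*, and *Gclm* had log2 differences of 0.16, 0.21, and 0.42, the cystine carrier *Slc7a11* had -0.20, and *Prdx1* had 0.080, none of them called. Of 30 genes of glycolysis and glucose entry, 1 was called, lower (3.33%, against 4.59% of all tested genes), and the median was -0.031. It was the aldolase *Aldoc*, at 35.5, 33.6, and 34.2 CPM in IR and 16.96, 17.5, and 18.3 CPM in JMO libraries (log2 -0.97). The glucose carrier *Slc2a1* differed by log2 0.42, *Hk2* by 0.47, *Pfkl* by 0.51, and *Ldha* by 0.32, without calls, and *Pkm* overlapped between the groups.

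Several of the largest differences lay outside these lists. Carbonic anhydrases interconvert carbon dioxide and bicarbonate, and 2 of them had the largest decreases among called genes of at least 5 CPM in the higher group, a limit that leaves out rarer genes with larger differences. *Car3*, an isozyme abundant in fat and muscle, was at 4.65, 5.54, and 4.89 CPM in IR and 0.122, 0.306, and 0.347 CPM in JMO libraries (log2 -4.30, SE 0.29, adjusted p = 2.3e-14), and *Car2* was at 8.03, 7.93, and 7.36 CPM and 1.18, 0.306, and 0.545 CPM (log2 -3.45, SE 0.26). The mechanically gated channel *Piezo2* was at 6.88, 7.87, and 6.32 CPM and 0.773, 0.714, and 0.793 CPM (log2 -3.19). In all 3 no JMO library was above 1.18 CPM. *Itgbl1*, a secreted protein with integrin-like repeats, was at 29.4, 31.8, and 28.6 CPM in IR and 4.92, 4.59, and 3.77 CPM in JMO libraries (log2 -2.75), and *Trhde*, a peptidase of thyrotropin-releasing hormone, at 9.52, 9.23, and 9.39 CPM and 1.46, 1.63, and 1.19 CPM (log2 -2.71). The adhesion receptor *Adgrl3* (log2 -2.61) and *Fam180a* (log2 -2.26) completed the 10 lowest above that limit.

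On the higher side, *Cyp1a1*, the xenobiotic-metabolizing enzyme induced through the aryl hydrocarbon receptor, was at 0.683, 0.597, and 0.790 CPM in IR and 10.1, 11.2, and 9.56 CPM in JMO libraries (log2 3.88, SE 0.23). Letters of the receptor's response element, TTGCGTG, occurred in 1.6% of the windows of genes called higher and 1.52% of those called lower, close to the 1.58% of the windows of all tested genes (1.16% of all windows). The guidance cue *Slit3* was at 0.854, 0.706, and 0.642 CPM in IR and 6.99, 6.74, and 7.19 CPM in JMO libraries (log2 3.23), and the organic anion carrier *Slco4a1* at 0.769, 0.978, and 0.642 CPM and 6.71, 6.38, and 5.75 CPM (log2 2.98). Among rarely detected genes, *Tnmd*, tenomodulin of tendon, had 70 counts over the IR and 2 over the JMO libraries, 36.3 times as many per library size (exact 95% counting interval 9.68 to 306). Another tendon gene, the factor *Mkx*, was called higher (log2 0.86). The keratin *Krt8* had 27 and 1 counts, a ratio of 28.0 (4.62 to 1150). Altogether 16 called genes had 3 or fewer counts over a group, 3 of them 0.

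DKO, KD, and CT cells were compared with the same 3 IR libraries, so the values of the 4 lines are set side by side and share their reference. For complement and acute-phase genes the median log2 difference from IR was 1.66 in JMO, 1.54 in DKO, -0.12 in KD, and -0.17 in CT cells. *Lcn2*, for example, had a mean of 54.8 CPM in DKO, 3.70 CPM in KD, and 2.22 CPM in CT cells, against 1.51 ± 0.303 CPM in IR and 131 ± 3.85 CPM in JMO cells (SD, n = 3). For interferon-stimulated effectors the medians were 0.64 in JMO and 0.64 in DKO cells, while KD and CT cells lay below IR, at -0.82 and -1.11. *Oas2* was at 246 CPM in DKO, 9.55 CPM in KD, and 11.3 CPM in CT cells. Class I presentation had medians of 0.62, 0.67, -0.38, and -0.44 in JMO, DKO, KD, and CT cells.

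For collagen chains the medians were -0.40 in JMO, -0.81 in DKO, -0.15 in KD, and -0.14 in CT cells, and *Col3a1* was at 1083 CPM in DKO, 1585 CPM in KD, and 1970.0 CPM in CT cells. In 2 further lists the order of the lines was another. For p53 targets the median was 0.30 in JMO, and -0.0033 in DKO, 0.014 in KD, and -0.046 in CT cells. Cholesterol genes had -0.37 in JMO, -0.14 in DKO, 0.24 in KD, and 0.21 in CT cells. *Insig1* was at 516 CPM in DKO, 642 CPM in KD, and 679 CPM in CT cells, so the mean of JMO cells, 304 CPM, was the lowest of the 5 lines (against DKO, log2 -0.76, adjusted p = 1.06e-17). Single genes differed between JMO and DKO cells too. *Ltbp2* had a mean of 49.05 CPM in DKO and 118 CPM in JMO cells (log2 1.27, adjusted p = 3.89e-20), *Cyp1a1* 2.31 and 10.3 CPM (log2 2.14, adjusted p = 8.26e-11), and *Fbn2* 0.852 and 6.33 CPM (log2 2.91, adjusted p = 8.38e-17).

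**Figure D4:**
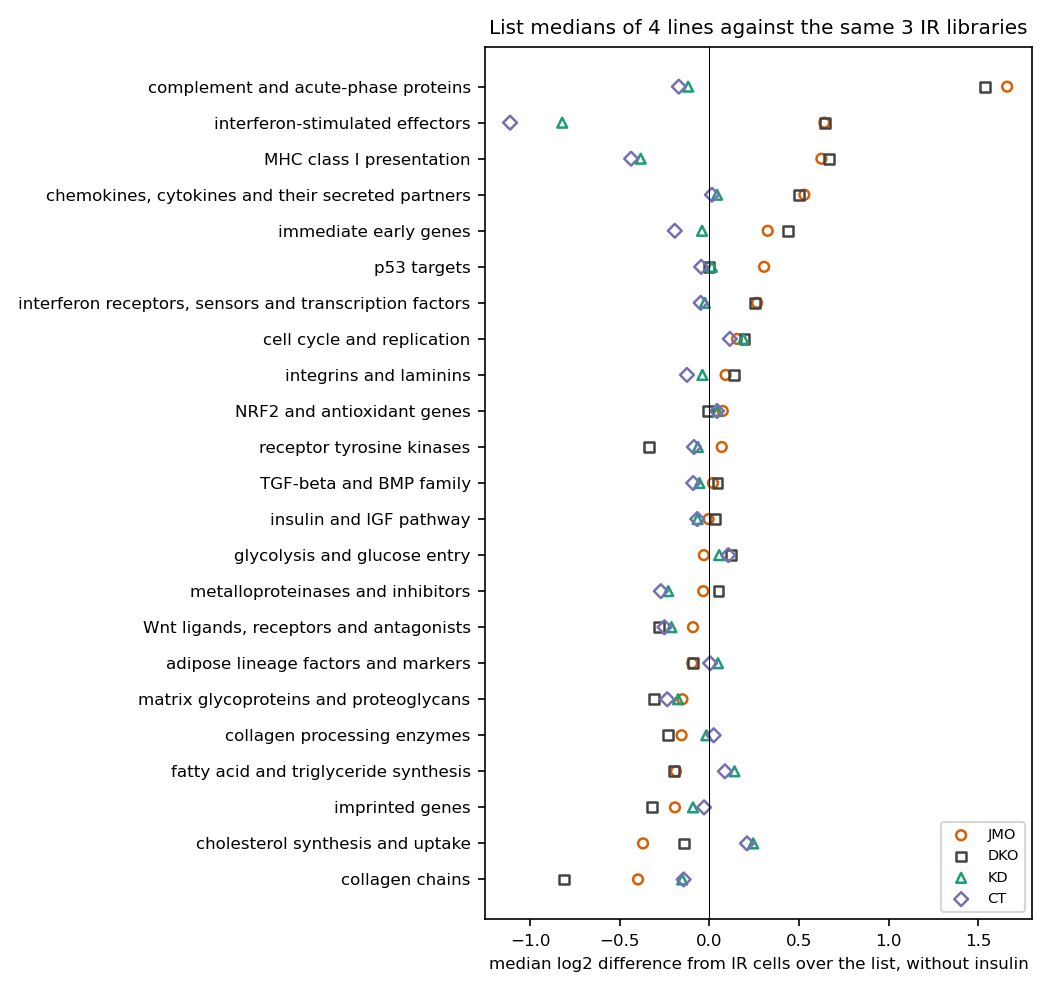
Median log2 difference from IR cells without insulin (x axis) over each of 23 gene lists in JMO (circles), DKO (squares), KD (triangles), and CT cells (diamonds), all against the same 3 IR libraries. JMO and DKO medians lie together at 1.66 and 1.54 for complement and acute-phase proteins, and for p53 targets the JMO median is 0.30 while the other 3 lie between -0.046 and 0.014.

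The libraries given insulin repeat the comparison of JMO with IR cells in other dishes. In them 719 genes were called (4.67%), 403 higher and 316 lower in JMO cells. The calls of both comparisons shared 584 genes with the same direction, which is 82.6% of the calls without and 81.2% of those with insulin, 337 of them higher and 247 lower. Of the 707 genes called without insulin, 702 had the same sign with insulin. *Lcn2* differed by log2 6.30 with insulin and 6.42 without, *C3* by 5.42 and 5.44, *H2-K1* by 2.69 and 2.73, *Col3a1* by -1.95 and -2.002, and *Igf1* by -1.87 and -1.77. Both comparisons rest on the same JMO and IR lines, so dishes and not lines were repeated.

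Whether insulin changed the difference between the lines was tested as an interaction in the same model. It passed in 43 genes (0.279% of those tested, adjusted p below 0.05), and in all 43 the difference of JMO from IR was lower with insulin than without. Of the 43, 19 were called lower with insulin. With an unadjusted p below 0.05 there were 1000 genes. The 43 genes included 19 of the immediate early list and 6 of the 707 genes called without insulin. *Fos* was at 4.38 ± 0.810 CPM in IR and 5.21 ± 0.550 CPM in JMO cells without insulin, and at 93.6 ± 4.06 CPM and 11.8 ± 0.852 CPM with it (SD, n = 3 each; interaction log2 -3.24, adjusted p = 1.12e-16). *Egr1*, another early factor, was at 109 ± 9.70 CPM and 109.6 ± 4.90 CPM without insulin, and at 768 ± 5.87 CPM and 244 ± 10.04 CPM with it (interaction log2 -1.66, adjusted p = 1.41e-11). In both genes the libraries of the lines overlapped without insulin and lay far apart with it. *Dusp5*, a phosphatase that shuts off ERK, was the 1 gene called in opposite directions, higher in JMO cells without insulin (log2 0.87) and lower with it (log2 -0.87). The number of such genes depended on the third IR library without insulin, and without it 97 passed.

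**Figure D5:**
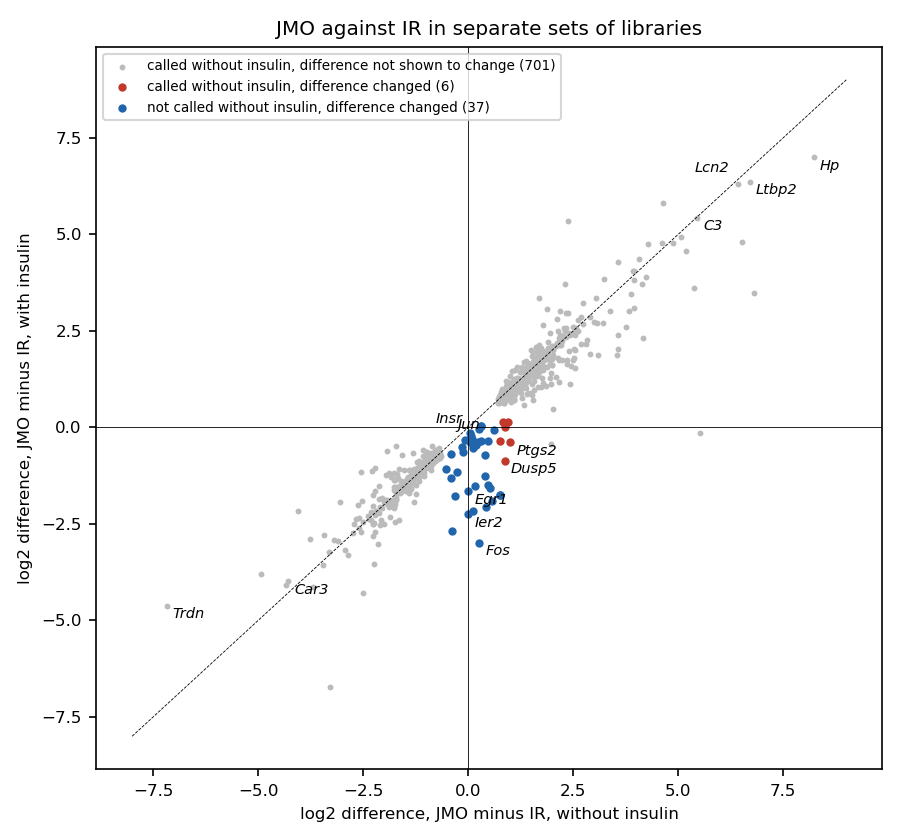
Log2 difference of JMO from IR cells with insulin (y axis) against that without (x axis) for genes called without insulin and genes whose difference changed with insulin; the dashed line marks equal differences. Most grey genes lie along the line, and the 43 colored genes, 6 called (red) and the others not called without insulin (blue), lie below it, with *Fos* the farthest.

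Because each receptor was studied in 1 line, differences were also summed along chromosomes. Median log2 differences ran from -0.048 on the X chromosome to 0.050 on chromosome 1, and the share of tested genes called ran from 3.40% on chromosome 4 to 6.96% on chromosome 18. Among genes of at least 10 CPM the medians were -0.066 on the X chromosome and 0.033 on chromosome 1. Medians this small often moved with the processing, as given below. Differences that involve DKO cells were larger along some chromosomes. DKO against IR cells had medians of 0.19 on chromosome 12 and -0.16 on chromosome 8, and JMO against DKO cells had -0.17 and 0.17 on the same chromosomes, so that the values of DKO cells given above, such as those of *Ltbp2* on chromosome 12, stand beside these shifts, whose part in them was not tested.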

How the data were processed

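Per the labels and the study's methods, polyadenylated RNA was made into stranded libraries and read from 1 end, and the authors trimmed reads with fastp, quantified Ensembl mouse transcripts with kallisto, and added transcripts up to genes with tximport. The deposited values are expected counts per gene, neither filtered nor scaled, and 79.9% are exactly whole. They were rounded. Genes above 0.5 CPM in at least 4 of 26 libraries were kept, scaled by TMM, and fitted with edgeR 4.0.16 in R 4.3.3 (robust quasi-likelihood, 1 mean per group, all 26 libraries). Calls used glmTreat at a minimum fold of 1.5 and a Benjamini-Hochberg adjusted p below 0.05, and the log2 difference, standard error (SE), and adjusted p of single genes came from edgeR's quasi-likelihood test with no minimum fold. CPM are relative to TMM-scaled library totals. Where a group held 3 or fewer counts of a gene, the ratio carries an exact 95% interval. Coordinates are on GRCm38, the authors' build, and promoter windows are from RefSeq on GRCm38.p6, in which *Oas2* and *Hp* had no entry.

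Genes given with values were the 10 with the largest and the 10 with the smallest difference (called, non-overlapping, at least 5 CPM in the higher group), members marked as core of each list, the 2 most extreme called members per list and direction, and *Insr* and *Igf1r*. Other called members are named to make up counts, and *Nfkbiz*, *Dusp5*, *Dusp6*, *Ier3*, and *Ptgs2* were added after their values were seen. The comparison, members, and lists were chosen with earlier results of these data known. Lists are described by counts and medians, with no test, and some members that are counted are not reported here by name. Libraries totalled 17228982 to 24694828 counts, so 0.5 CPM is about 10 counts. Libraries with the same replicate number did not deviate together (correlations -0.0021, 0.011, and 0.015), so numbers were not used as pairs. The fits were tested on simulated data with known changes. Alternatives were RLE scaling, other filters, unrounded counts, limma 3.58.1 with voom, DESeq2 1.42.0, other folds and thresholds, a fit of only the libraries compared, a replicate block, and each library left out.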

Additional observations from a re-analysis of the deposited data

Results flagged for a closer look

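The results below stand out because the difference between JMO and IR cells was not the same with and without insulin, by a test of that change itself (edgeR's quasi-likelihood test of the interaction, Benjamini-Hochberg adjusted p below 0.05, 3 libraries in each of 4 groups). In all, 43 genes passed, each with a lower JMO-minus-IR difference with insulin than without, and 97 passed when the third IR library without insulin was left out. The median log2 difference over the immediate early list was 0.33 without and -0.70 with insulin. The log2 change of the difference was -3.24 for *Fos*, -2.24 for *Ier2*, -1.66 for *Egr1*, and -0.83 for *Jun*, all transcription regulators of the early growth factor response. It was -1.74 for *Dusp5* and -0.87 for *Dusp6*, both phosphatases of ERK, -1.39 for *Ptgs2* (cyclooxygenase 2), -1.10 for *Ier3*, and -0.70 for *Nfkbiz*. These 5 genes, *Dusp5* to *Nfkbiz*, were called higher in JMO cells without insulin. *Ptgs2*, for example, was at 38.6 ± 1.73 CPM in IR and 77.5 ± 2.73 CPM in JMO cells without insulin, and at 120.0 ± 4.30 CPM and 92.1 ± 4.67 CPM with it (SD, n = 3 each). *Insr* itself changed by -0.29 (adjusted p = 0.0294), from 67.7 ± 1.70 CPM in IR and 71.0 ± 2.82 CPM in JMO cells without insulin to 87.5 ± 2.35 CPM and 75.3 ± 2.08 CPM with it. Groups of 3 libraries were too small for a check of single outlying libraries.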

How the results depend on the processing

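Genes called without insulin numbered 707 and, with each of the 6 libraries left out in turn, 637 to 667, of which 619 to 646 were among the 707. With insulin the 719 calls ranged from 636 to 674, and the 43 genes whose difference changed with insulin ranged from 38 to 97. A fit of replicate number as a block gave 717, 727, and 47, and the block changed no call by over 1.5 times, although the numbers do not pair the libraries. DESeq2 called 479 genes without and 472 with insulin. With no minimum fold there were 6535 and 6196 calls, at a minimum fold of 2 there were 275 and 280, and at an adjusted p below 0.001 there were 447 and 450. Of the 173 genes called over all lists, 155 to 168 were called with a library left out and 137 with DESeq2. Of the single genes checked, 170 passed with no minimum fold. List medians moved by more than the spread between dishes in 34 of 144 checks with a library left out. They did so in 0 of 94 other checks. Chromosome medians moved by more than that spread in 39 of 120 checks with a library left out and 24 of 40 others.

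Single differences close to 0 changed sign. With a library left out, *Ier2* (-0.0043) ranged from -0.12 (without the third IR library) to 0.16, through 0.012 and 0.056, *Egr1* (0.0046) from -0.061 to 0.069, *Lox* from -0.0060 to 0.057, and *Dusp1* from -0.037 to 0.10, with -0.0036 and, for *Egr1*, -0.031 among the values below 0. *Ier2* also became 0.0034 with RLE scaling, 0.0039 with only the libraries compared, 0.011 with DESeq2, and 0.0026 with voom, and *Egr1* became -0.0080 with no filter and -2e-04 with the filter of 10 counts. Of 1267 other checks of single genes 1243 kept direction and side of the threshold, and of 1086 with a library left out 1048 did. With 1 line per receptor and 3 dishes, differences between lines from any source cannot be told apart from the receptor, and levels under 0.5 CPM rest on few counts.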

Other observations

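Some gene groups were drawn up only after their members' values had been seen, so their counts describe these libraries and were not tested. Of 45 tested targets of ATF4, the factor that answers amino acid shortage, 6 were called lower in JMO cells, none was called higher, and 39 were not called. With no minimum fold 33 were lower and 3 higher, and the median log2 difference was -0.39. *Atf5*, a related factor, was at 159, 158, and 134 CPM in IR and 63.9, 71.5, and 65.1 CPM in JMO libraries without insulin. The mitochondrial folate enzyme *Aldh1l2* was at 291, 297, and 308 CPM in IR and 144, 147, and 133 CPM in JMO libraries. Neither pair overlapped. *Pycr1* of proline synthesis (log2 -1.16), the alanine aminotransferase *Gpt2* (-0.89), the glutathione-degrading *Chac1* (-1.36), and *Trib3* completed the 6. The median of the list against the same IR libraries was -0.66 in DKO, -0.042 in KD, and -0.086 in CT cells.

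Of 11 tested targets of the aryl hydrocarbon receptor, 5 were called higher and none lower, with a median of 0.51. Beside *Cyp1a1* these were *Cyp1b1*, at 611, 608, and 591 CPM in IR and 1035, 1042, and 969.8 CPM in JMO libraries, *Xdh*, at 54.4, 59.1, and 56.7 CPM and 146, 142, and 146 CPM, and *Ugt1a6a* and *Ugt1a6b*, which share exons, so that reads may be split between them. No pair of groups overlapped.

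Guidance cues of axons and migrating cells differed in both directions. Of 28 semaphorins and plexins, 3 were called higher and 4 lower. *Sema3c* was at 132, 141, and 146 CPM in IR and 450.3, 465, and 456 CPM in JMO libraries (log2 1.71), while its relative *Sema3a* was at 219, 233, and 241 CPM in IR and 89.0, 92.6, and 84.0 CPM in JMO libraries (log2 -1.38). These relatives thus differed in opposite directions, each without overlap. *Sema5a* differed by log2 -1.33, *Sema3d* by -1.41, and *Plxna2* by -0.78. Among 12 slits, netrins, and their receptors, 5 were called higher and 2 lower. Those higher were *Slit2* (log2 1.24), *Ntn1* (0.90), *Slit3*, the netrin receptor *Unc5b* (0.99), and *Robo3* (2.18). Those lower were another netrin receptor, *Unc5c* (-1.91), and *Flrt3* (-2.11). Of 32 clustered protocadherins, 5 were called lower and none higher, with 16 lower and 1 higher with no minimum fold. The median was -0.34, and it was -0.87 in DKO, -0.33 in KD, and -0.29 in CT cells against the same IR libraries. Clustered protocadherins share much sequence, and reads may be split among them.

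*Trdn*, the gene of triadin of the sarcoplasmic reticulum, had 79, 51, and 66 counts in the IR libraries and 0, 1, and 0 in the JMO libraries, a ratio of 203 (exact 95% counting interval 36.1 to 8070), although *Myod1* and *Myf5* of muscle were at 0 in all of them.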
